A study of Sus scrofa with 6 samples.

Results

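Cytokines, chemokines and interferon response genes were followed in left atrial tissue, with 1 porcine Affymetrix array for each of 6 animals, all Lanyu miniature pigs, male and aged 18 months. The members were all genes whose single symbol in the array annotation starts with IL and a digit, CCL, CXCL, CCR, CXCR, TLR, IRF, IFI, MX and a digit, OAS, STAT or NFKB, or is TNF or ISG15. They numbered 92 of 6765 annotated genes and had 122 of the 23999 probe sets, and each gene is given by its probe set with the highest mean. MRV animals (n = 2) had a leaking mitral valve, made by surgery that opened a hole of 2.8 mm in its posterior leaflet, and received the angiotensin receptor blocker valsartan at 3.43 mg/kg/day, starting before surgery. MR animals (n = 2) had the same lesion without valsartan, and NC animals (n = 2) were normal controls for which no surgery is recorded. MRV and MR animals were killed 12 months after surgery, so a comparison with NC covers the lesion and its surgery together. Whether the drug changed the size of the leak is not given in the labels.

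Cytokines and chemokines are secreted proteins that direct leukocytes, and most reach the cell nucleus through a short relay. Many interleukin receptors, though not all, activate Janus kinases and STAT transcription factors. Toll-like receptors and TNF release NF-kB from its inhibitors, and IRF factors switch on interferon-induced genes such as MX1, OAS1 and ISG15. In heart muscle these signals come from resident macrophages, endothelium and fibroblasts as well as from myocytes, and the chemokine CCL2 is known for drawing monocytes into loaded myocardium.

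Values are intensities on a linear scale, and all differences are between log2(intensity + 16) values, which understates changes of dim probe sets. Intensities of different genes come from different probes and are not compared with each other. Of the 92 members, 56 passed the filter on dim probe sets, a mean of 61.4, and were tested within a limma fit of all 14400 probe sets above it. Another 35 had a mean below 60, and CCL8 lay between these limits with 42.2 and 90.2 in MRV, 51.7 and 61.4 in MR, and 57.1 and 59.1 in NC. The dim members held many of the classical inflammatory cytokines. IL6, an acute inflammatory cytokine, ran from 18.4 to 20.4, CXCL8, the main neutrophil chemokine, from 7.20 to 9.30, IL10, an anti-inflammatory cytokine, from 20.2 to 31.5, and NFKB1, a subunit of NF-kB, from 19.5 to 25.5. Such values give no difference that can be read, and they do not show that the transcripts were absent.

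No member passed the threshold of an adjusted p under 0.05 in any comparison with limma. In MRV minus MR 0 of the 56 tested members passed, against 0% of all probe sets, with a smallest adjusted p of 0.536. In MRV minus NC 0 passed, also against 0%, with a smallest adjusted p of 0.904. In MR minus NC 0 passed, against 0.00694% of probe sets, which is 1 probe set of no member gene, and all 56 adjusted p-values were 0.999955. At an unadjusted limma p under 0.05, 3 members were counted in MRV minus MR, where 7.88% of all tested genes were, 1 in MRV minus NC, where 5.62% were, and 0 in MR minus NC, where 4.49% were. The 3 were CCL19, IL34 and IRF3, all lower in MRV, and the 1 in MRV minus NC was again IRF3. In bulk tissue, fewer cells of a type and less RNA per cell cannot be told apart in any of these values.

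The members had a median close to that of all genes in each comparison. Their median log2 difference was -0.03 in MRV minus MR, where 23 were higher and 33 lower, and the median over all 5408 tested genes was -0.03 as well. It was 0.01 in MRV minus NC (all genes -0.02) and 0.03 in MR minus NC (all genes 0.01). The arrays of both groups did not overlap for 17 of 56 members in MRV minus MR (30.4%), against 43.7% of all tested genes. They did not overlap for 9 members in MRV minus NC (16.1%), against 35.1%, and for 9 in MR minus NC (16.1%), against 28.2%. By direction, 8 were higher and 9 lower in MRV than in MR (all genes 15% and 28.7%), 5 higher and 4 lower in MRV than in NC (13.3% and 21.8%), and 7 higher and 2 lower in MR than in NC (15.7% and 12.4%). Gaps of at least 0.5 on the log2 scale without overlap were seen for 5 members in MRV minus MR, against 4.73% of all genes, for 1 in MRV minus NC, against 3.11%, and for 0 in MR minus NC, against 2.37%. In MRV minus MR they were CCL2 and CXCL9, higher in MRV as were 1.63% of all genes, and CCL19, CXCL14 and TLR4, lower as were 3.11%. In MRV minus NC it was CCL2, higher as were 0.703% of all genes, with 0 members lower against 2.4%, and in MR minus NC the shares of all genes were 1.11% higher and 1.26% lower. MRV minus MR and MR minus NC share the MR arrays, so opposite signs for a gene in these comparisons are not independent.

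Within a group, the members differed between animals. The SD between arrays of a group had a median of 0.18 (log2) over the 56 tested members, against 0.13 over all tested genes, and it exceeded 0.5 for CXCR4, CXCL2 and CXCL14, 5.36% of the members against 3.62% of all genes. The array of animal MR1 read at least 1.5-fold above the median of the other 5 arrays for 6 members (10.7%, against 1.81% of all tested genes), and that of NC1 for 5 (8.93%, against 3.51%). For MR1 these were CXCL14, TLR4 and the interferon-induced genes ISG15, OAS1, MX1 and IFIT3. For NC1 they were CXCR4, CCL21, CXCL9, TLR4 and IFI44L. The other 4 arrays had 0 to 3 such members.

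**Figure D1:**
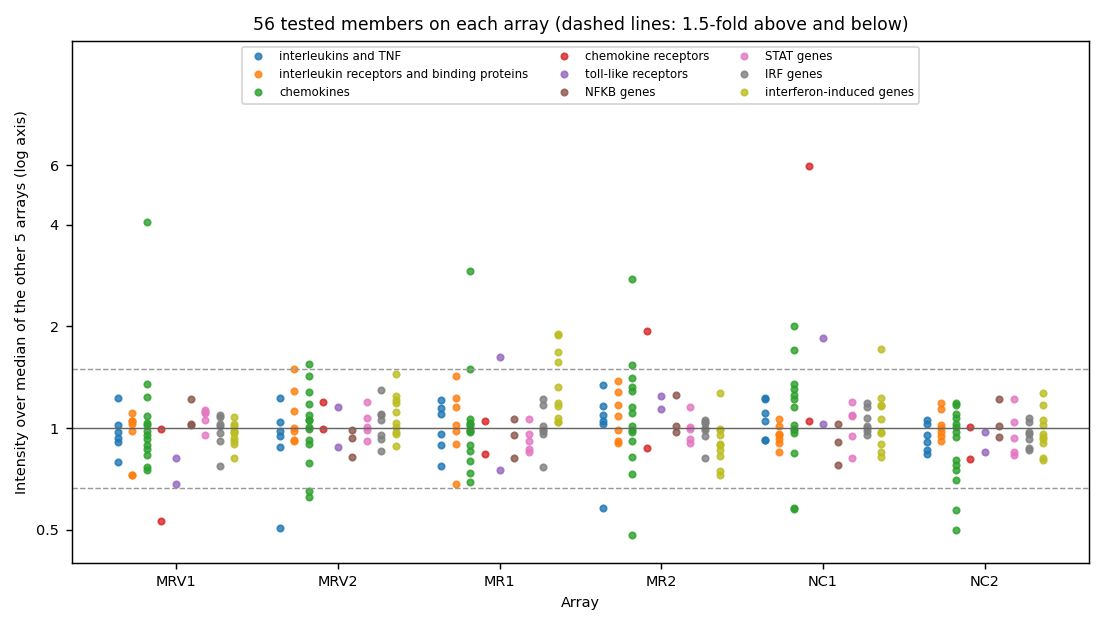
Intensity of each of the 56 tested members on an array, divided by the median of the other 5 arrays (log axis), with 1 column of points per role and array. The interferon-induced genes of MR1 reach 1.90-fold, CXCR4 on NC1 reaches 5.95-fold, and most other points lie between the dashed lines at 1.5-fold above and below.

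Among the cytokine ligands, 6 of 19 members were tested, and IL34 had the clearest separation. IL34 is a ligand of the macrophage receptor CSF1R beside CSF1 and supports resident macrophages. It read 98.6 and 109 in MRV, against 136 and 159 in MR and 124 and 118 in NC. Both MRV arrays lay below all 4 others, and both MR arrays above them. The log2 difference was -0.44 (SE 0.12) in MRV minus MR, with a limma adjusted p = 0.571 and an unadjusted p = 0.0113, -0.19 in MRV minus NC and 0.25 in MR minus NC. In MRV minus MR it stayed between -0.54 and -0.33 under all 14 alternatives, none of which brought its adjusted p below 0.393.

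IL1B, the interleukin that the inflammasome releases, read 64.5 and 65.4 in MRV, 79.0 and 71.3 in MR, and 63.7 and 68.9 in NC. Both MR arrays were above the other 4, yet the log2 differences were only -0.17 in MRV minus MR and 0.15 in MR minus NC, and its other, dimmer probe set gave 0.18 and -0.01. TNF, a central inflammatory cytokine, read 80.6 and 83.9 in MRV, 73.6 and 82.8 in MR, and 76.5 and 82.7 in NC. Its groups overlapped, and the 95% interval of the MR minus NC difference ran from -0.29 to 0.25 on the log2 scale. IL15, which sustains natural killer and memory T cells, read 110.2 and 136 in MRV, 121 and 70.5 in MR, and 135 and 110.4 in NC, with MR2 below the other 5 arrays and the MR1 value inside their range.

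IL17B, a less studied member of the interleukin 17 family, read 161 and 76.9 in MRV, 117 and 152 in MR, and 159 and 131 in NC, where MRV2 was the lowest array and MRV1 the highest. IL16, a chemoattractant for CD4+ T cells, stayed between 85.1 in NC2 and 110.3 in NC1. The other 13 ligands, IL1A, IL2, IL4, IL5, IL6, IL7, IL10, IL12A, IL12B, IL13, IL17A, IL18 and IL21, had means below 60. IL18, a partner of IL1B in inflammasome signalling, read 17.3 and 22.9 in MRV, 26.2 and 33.5 in MR, and 22.5 and 16.6 in NC, higher on both MR arrays than on the other 4, at a level too dim to be tested.

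Interleukin receptors and binding proteins had 7 tested members of 13. Arrays did not overlap for 2 of the 7 in MRV minus MR (28.6%, against 43.7% of all tested genes), 0 in MRV minus NC (against 35.1%) and 3 in MR minus NC (42.9%, against 28.2%). IL11RA, the receptor of the interleukin 11 that acts on fibroblasts, read 925 and 901 in MRV, against 809 and 827 in MR and 959 and 902 in NC. The MR arrays were the lowest, with log2 differences of 0.16 (SE 0.10, limma adjusted p = 0.771) in MRV minus MR and -0.18 (SE 0.10, limma adjusted p = 0.999955) in MR minus NC. IL27RA, a receptor subunit for interleukin 27, had the opposite order, with 63.8 and 58.9 in MRV, 70.1 and 77.6 in MR, and 60.8 and 60.5 in NC. IL18BP, which binds and blocks interleukin 18, read 119 and 107 in MRV, 131 and 117 in MR, and 106 and 107 in NC, so both MR arrays were above both NC arrays and MRV1 lay between the MR arrays.

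IL4R, the shared receptor chain for interleukins 4 and 13, read 235 and 357 in MRV, 318 and 439 in MR, and 312 and 324 in NC, and its partner IL13RA1 read 137 and 178 in MRV, 197 and 138 in MR, and 140.4 and 137 in NC. IL1R1, the signalling receptor for IL1B, read 115 and 203 in MRV, 109 and 159 in MR, and 136 and 162 in NC. In these 3 genes the arrays of all groups overlapped. IL12RB2 stayed between 95.9 and 118, and IL10RB, IL2RG, IL2RA, IL7R, IL18R1 and IL6R were below 60.

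Chemokines were the role with the widest gaps between MRV and MR. Of 19 members 14 were tested, and between MRV and MR 3 were higher and 2 lower in MRV without overlap, against 15% and 28.7% of all tested genes. CCL19, which guides T cells and dendritic cells through the receptor CCR7, read 56.9 and 46.2 in MRV, against 85.2 and 87.5 in MR and 74.0 and 55.6 in NC. The MR arrays nearly coincided and were above the other 4, while the NC2 value lay inside the MRV range. Its log2 difference in MRV minus MR was -0.60 (SE 0.15, unadjusted p = 0.00796, limma adjusted p = 0.536), and in MR minus NC it was 0.35 (limma adjusted p = 0.999955).

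CXCL14, a chemokine expressed by epithelium and stroma, read 71.5 and 53.6 in MRV, against 209 and 82.4 in MR and 47.7 and 84.8 in NC. On this probe set the distance rested mainly on MR1, since MR2 lay below NC2. The log2 difference was -0.93 (SE 0.42, limma adjusted p = 0.709) in MRV minus MR, and it was -0.33 without MR1 and -1.52 without MR2. Another probe set of CXCL14 gave -0.64 (SE 0.25, limma unadjusted p = 0.0475, adjusted p = 0.677) and read 141 on MR1, its highest array too. On that probe set MR2 (84.7) was slightly above NC2 (82.1), so both MR arrays were above both NC arrays (log2 difference 0.53, limma adjusted p = 0.999955).

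CCL2, the main monocyte chemoattractant, had its highest values in MRV. It read 289 and 361 in MRV, against 198 and 233 in MR and 285 and 143 in NC. Both MRV arrays were above all others, by a small margin over NC1, and the NC arrays enclosed both MR arrays. The log2 differences were 0.56 (SE 0.31, limma adjusted p = 0.757) in MRV minus MR, 0.63 (SE 0.31, limma adjusted p = 0.904) in MRV minus NC and 0.08 in MR minus NC, where the sign turned without NC2 (-0.38) and the value was 0.54 without NC1. CCL2 was the 1 member with a gap of at least 0.5 without overlap in MRV minus NC, and that gap was 0.17 without NC2 and 1.10 without NC1.

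CXCL9, induced by interferon gamma and read by T cells through CXCR3, read 127 and 134 in MRV, against 93.6 and 61.4 in MR and 159.8 and 72.7 in NC. Both MRV arrays were above both MR arrays (log2 difference 0.67, SE 0.34, limma adjusted p = 0.741; 0.42 without MR2), and the NC arrays lay on either side of them. CCL5, another T cell chemokine, read 71.4 and 71.8 in MRV, 65.8 and 49.3 in MR, and 67.4 and 54.4 in NC, with the MRV arrays above the other 4. The 8 measured T and NK cell markers, 6 of them with means below 60, summed to 415 and 397 in MRV, 409 and 340.2 in MR, and 389 and 333 in NC, so the sums of MRV and MR overlapped. Both MRV sums were above both NC sums. Of the 2 bright enough to test, CD8A was higher on both MRV arrays than on both MR arrays and CD8B overlapped. Against NC, CD8A and CD8B were each higher on both MRV arrays, as were 13.3% of all tested genes. The part of T cells in the chemokine values was not tested.

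CXCL2, a neutrophil chemokine, had the largest ratio of highest to lowest array among the tested chemokines, with 325 and 73.6 in MRV, 79.8 and 219.6 in MR, and 53.6 and 93.3 in NC. MRV1 and MR2 stood above the other 4 arrays, so neither lesioned group was high as a whole. The 4 measured neutrophil markers summed to 89.5 to 101 per array and all had means below 60. CCL21, a lymph vessel and lymphoid chemokine, read 239 in NC1 and between 109.6 and 123 on the other 5 arrays.

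CXCL12, which retains and recruits cells bearing CXCR4, read 270 and 249 in MRV, 265 and 350 in MR, and 305 and 211 in NC, with a log2 difference of -0.22 in MRV minus MR (95% interval -0.74 to 0.30) and another probe set at -0.07. CCL14 read 304 and 338 in MRV, 302 and 436 in MR, and 457 and 339.9 in NC, and CCL24, an eosinophil chemokine, read 257 and 349.5 in MRV, 273 and 385 in MR, and 341 and 239 in NC. The CCL24 arrays of all groups overlapped, and both MRV arrays of CCL14 lay below both NC arrays by a narrow margin. CCL4, CCL27, CXCL13 and CXCL16 had log2 differences between -0.08 and 0.10 in the 3 comparisons. CCL8 was not tested, and CCL3L1, CCL25, CCL28 and CXCL8 had means below 60.

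**Figure D2:**
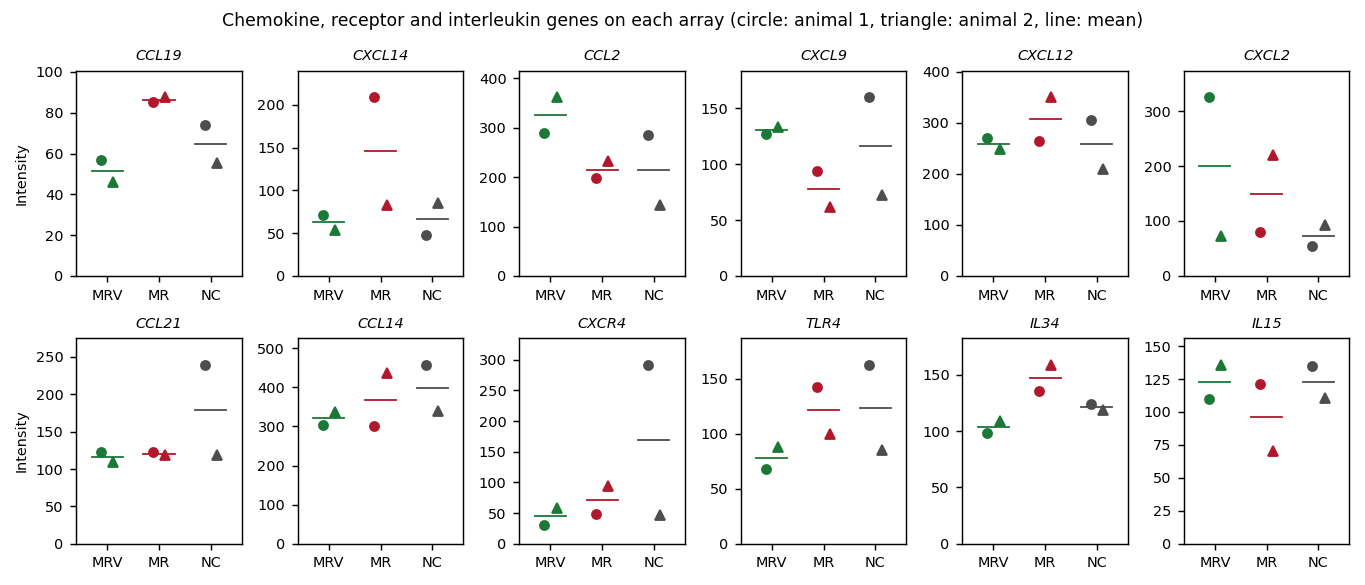
Intensity (linear axis from 0) of 12 chemokine, receptor and interleukin genes on each array, with MRV left, MR in the middle and NC right, circles for animal 1, triangles for animal 2 and lines for group means. CCL19 and IL34 separate MRV from MR, CCL2 is highest in MRV, and CXCR4 and CCL21 are set apart by NC1.

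Of the receptors for chemokines and microbial patterns, 2 of 8 and 2 of 6 were tested. CXCR4, the receptor of CXCL12, read 291 in NC1, 5.95-fold the median of the other 5 arrays, which ran from 31.1 in MRV1 to 94.8 in MR2. Its log2 difference in MRV minus NC was -1.24 (SE 0.74, limma adjusted p = 0.904) and -0.10 without NC1. CCR2, the receptor of CCL2 on monocytes, read 83.4 and 83.4 in MRV, 87.3 and 73.2 in MR, and 87.3 and 83.9 in NC, so both MRV arrays lay just below both NC arrays and inside the MR range. CCR7, the receptor of CCL19, CCR1, CCR3, CCR9, CCRL2 and CXCR6 were below 60.

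TLR4, the receptor for bacterial lipopolysaccharide and for products of damaged tissue, read 68.3 and 87.8 in MRV, against 143 and 100 in MR and 162 and 85.2 in NC. Both MRV arrays were below both MR arrays, and MRV2 was close to NC2. The log2 difference in MRV minus MR was -0.54 (SE 0.30, limma adjusted p = 0.757), its 4 other probe sets gave -0.08 to -0.29, it was -0.31 without MR1, and the sign turned to 0.19 with the actin ratio described at the end as a covariate. LY96, which binds lipopolysaccharide together with TLR4, read 154 and 349.7 in MRV, 325 and 351 in MR, and 276 and 317 in NC. TLR2, the receptor for bacterial lipoproteins, read 52.9 and 72.8 in MRV, 48.7 and 78.7 in MR, and 64.8 and 63.2 in NC with no order between groups, and TLR1, TLR6, TLR8 and TLR9 were below 60.

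Downstream, the tested NFKB and STAT members had log2 differences of at most 0.20 in size. NFKBIA, the inhibitor that holds NF-kB in the cytoplasm and is itself induced by it, read 1567 and 1287 in MRV, 1282 and 1610.3 in MR, and 1215 and 1571 in NC. Each group held 1 animal near the low end and 1 near the high end, and the 95% interval in MR minus NC was -0.42 to 0.53 (log2). NFKBIB, a related inhibitor, and NFKBIL1, an inhibitor-like protein, had log2 differences between -0.06 and 0.06 in the 3 comparisons. Of the NF-kB kinases, subunits and adaptors that the symbols do not catch, 8 of 13 measured genes were tested and 0 passed in each comparison, with medians of -0.04 in MRV minus MR, 0.00 in MRV minus NC and 0.07 in MR minus NC. CYLD, a deubiquitinase that limits NF-kB signalling, read 126 and 108 in MRV, 138 and 185 in MR, and 142 and 151 in NC.

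STAT genes had 5 tested members of 6. STAT3, which carries interleukin 6 family signals, read 577 and 587 in MRV, 529 and 632 in MR, and 547 and 539 in NC, and STAT5B read 566 and 482 in MRV, 506 and 489 in MR, and 548 and 526 in NC. STAT2, a part of the interferon-activated complex, read 193 and 201 in MRV, 214 and 203 in MR, and 241 and 169 in NC. Differences of all 5, with STAT5A and STAT6, lay between -0.11 and 0.20 on the log2 scale, and STAT4 was below 60.

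All 7 IRF genes were tested, and IRF3 had the smallest unadjusted p of any member in MRV minus NC. IRF3, the factor that starts type I interferon production, read 249.9 and 277 in MRV, against 312 and 328 in MR and 335 and 324 in NC. Both MRV arrays were below the other 4, with log2 differences of -0.27 (SE 0.11, unadjusted p = 0.0484, limma adjusted p = 0.679) in MRV minus MR and -0.31 (SE 0.11, unadjusted p = 0.0296, limma adjusted p = 0.904) in MRV minus NC. In both, the sign was the same under all 14 alternatives.

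IRF2, which competes with IRF1 at its sites, had the opposite order, with 228 and 288 in MRV, 225 and 222 in MR, and 215 and 193 in NC, and the log2 difference in MRV minus NC was 0.31 (limma adjusted p = 0.904), or 0.15 without MRV2. Its other probe sets gave 0.19 and 0.00. IRF1, an activator induced by interferon gamma, read 205 and 218 in MRV, 163 and 213 in MR, and 244 and 204 in NC. IRF7, IRF8, IRF9 and IRF2BP1, a partner of IRF2 rather than an IRF factor, had log2 differences between -0.12 and 0.18.

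Interferon-induced genes were the role in which 1 animal stood out. All 10 members were tested, and MR1 was the highest array for 6 of them, where it was highest for 16.3% of all tested genes. Their median log2 difference was -0.11 in MRV minus MR, 0.01 in MRV minus NC and 0.11 in MR minus NC, with arrays that did not overlap for 1, 1 and 0 of the 10, against 43.7%, 35.1% and 28.2% of all tested genes. MR1 was also the array with by far the most MYL2, a ventricular marker, and the part of that tissue in these values was not tested. ISG15, a ubiquitin-like modifier, read 162 and 235 in MRV, against 306 and 149 in MR and 160 and 166 in NC. OAS1, which senses double-stranded RNA, read 169.8 and 176 in MRV, against 323 and 168 in MR and 198 and 168 in NC. MX1, an antiviral GTPase, read 212 and 259 in MRV, against 359 and 214 in MR and 262 and 208 in NC. In these genes MR1 was at least 1.68-fold above the median of the other 5 arrays while MR2 was at or below it.

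IFIT3 was also highest in MR1, 1.57-fold the median of the other 5 arrays, at 103 and 114 in MRV, 151 and 89.1 in MR and 87.6 and 96.0 in NC, and MX2 was 1.16-fold that median in MR1, at 107 and 94.5 in MRV, 120.4 and 77.2 in MR and 104 and 109 in NC. IFIT1 binds foreign RNA in a complex of IFIT proteins that includes IFIT3. It read 252 and 282 in MRV, 300.3 and 251 in MR, and 232 and 296 in NC. Another probe set of IFIT1 read 276 on MR1 and 159.7 to 191 elsewhere. On this other probe set both MR arrays were above both NC arrays, with a log2 difference of 0.39 in MR minus NC (SE 0.19, limma adjusted p = 0.999955). None of these genes separated MR from NC on the probe set with the highest mean. For ISG15 the MR minus NC difference was 0.36 (SE 0.33) and was -0.12 without MR1. For MX1 it was 0.23 and turned to -0.12 without MR1.

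IFI44L followed another animal, with 999 in NC1, 768 in MR1 and 529.7 to 585 on the other 4 arrays, and its other bright probe set, at 159 in NC1 and 133 in MR1, had the same order of these arrays. IFI35 was higher on both MR arrays than on both MRV arrays, with 139 and 146 in MRV, 152 and 185 in MR, and 155 and 143 in NC (log2 difference -0.22, limma adjusted p = 0.761). IFIT2 read 108 and 134 in MRV, 115 and 86.2 in MR, and 103 and 137 in NC. IFI30, a lysosomal thiol reductase of antigen processing, read 93.9 and 91.7 in MRV, 96.5 and 92.6 in MR, and 109 and 76.4 in NC, with group means nearly equal.

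**Figure D3:**
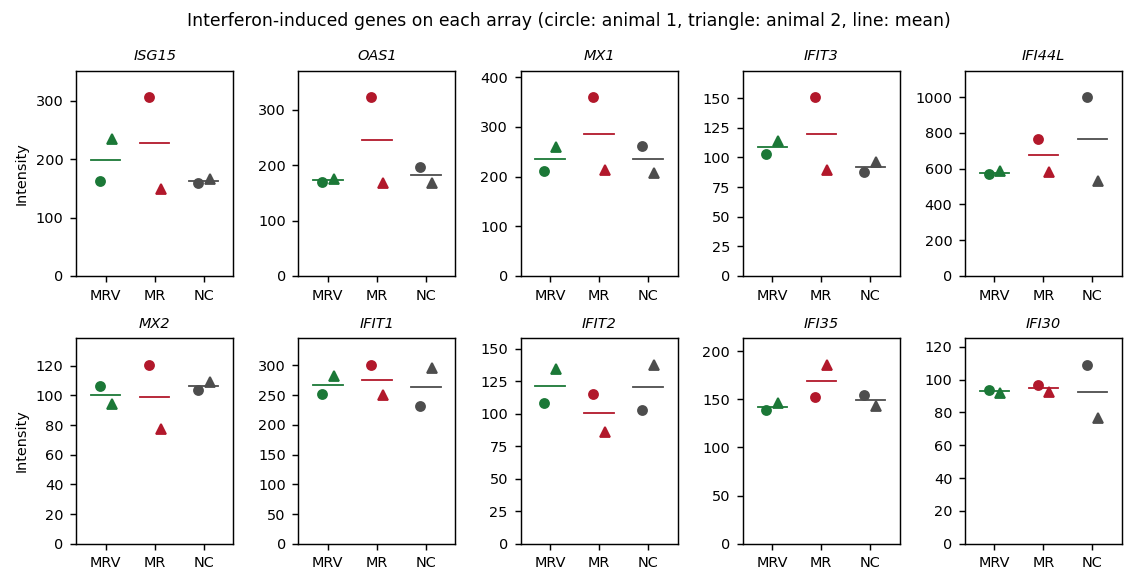
Intensity (linear axis from 0) of the 10 interferon-induced members on each array, with MRV left, MR in the middle and NC right, circles for animal 1, triangles for animal 2 and lines for group means. ISG15, OAS1, MX1 and IFIT3 are high in MR1 and not in MR2, and IFI44L is highest in NC1.

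Other interferon-induced genes, which the symbols do not catch, gave 18 tested genes of 23 measured, with 0 past the threshold in each comparison. MR1 was the highest array for 8 of the 18, among them the antiviral gene RSAD2 with 85.7 and 122 in MRV, 143 and 61.8 in MR, and 48.9 and 88.7 in NC. EIF2AK2, the kinase that stops translation on double-stranded RNA, read 265 and 265 in MRV, 289 and 261 in MR and 178 and 223 in NC. PARP9 read 137 and 149 in MRV, 151 and 148 in MR and 118 and 107 in NC. In both, all 4 lesioned arrays were above both NC arrays (MR minus NC log2 differences 0.44 and 0.36, both with a limma adjusted p = 0.999955). DDX60 read 118 and 62.1 in MRV, 97.8 and 89.8 in MR and 60.7 and 58.3 in NC. It had the same order, with MRV2 just above NC1 (MR minus NC log2 difference 0.54, limma adjusted p = 0.999955). Without overlap, 3 of the 18 (16.7%) were higher and 0 lower in MR than in NC (all genes 15.7% and 12.4%). In MRV minus NC 7 (38.9%) were higher and 2 lower (13.3% and 21.8%). In MRV minus MR 3 were higher and 3 lower (15% and 28.7%). The list's median was -0.03 in MRV minus MR, 0.16 in MRV minus NC and 0.13 in MR minus NC. By sign, 8 of 18 were higher in MRV than in MR (2292 of all 5408 tested genes), 14 of 18 higher in MRV than in NC (2393 of 5408) and 15 of 18 higher in MR than in NC (2843 of 5408). SAMHD1, which limits viral DNA synthesis, read 582 and 632 in MRV, 735 and 774 in MR, and 788 and 753 in NC. B2M, the light chain of class I antigen molecules, read 6814 and 9738 in MRV, 4384 and 5975 in MR, and 2157 and 9441 in NC, and NC1 was its lowest array by a wide margin. Both 28S ribosomal RNA control probe sets ranked the arrays in the same order as B2M. The brighter ran from 117 in NC1 to 559 in MRV2, and a technical part in the B2M values was not tested.

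Interferon receptors and Janus kinases had 7 tested genes and 0 passed, with medians of 0.09 in MRV minus MR, 0.09 in MRV minus NC and -0.04 in MR minus NC. IFNGR1, the ligand-binding chain of the interferon gamma receptor, read 354 and 387 in MRV, against 478 and 608 in MR and 419 and 387 in NC. Both MR arrays were above the other 4, with log2 differences of -0.53 (unadjusted p = 0.0121, limma adjusted p = 0.583) in MRV minus MR and 0.41 (unadjusted p = 0.0327, limma adjusted p = 0.999955) in MR minus NC. The cytokine suppressors had 5 tested genes, among them SOCS1 at 94.3 and 143 in MRV, 88.1 and 96.8 in MR, and 84.4 and 103 in NC, and 0 passed. SOCS6 read 53.8 and 56.5 in MRV, 47.4 and 64.4 in MR, and 94.2 and 64.3 in NC, with both MRV arrays below both NC arrays. PIAS1 read 581 and 561 in MRV, 474 and 519 in MR, and 513 and 471 in NC, with both MRV arrays above the other 4. Arrays did not overlap for 2 of the 5 in MRV minus MR (all genes 43.7%), 2 in MRV minus NC (35.1%) and 0 in MR minus NC (28.2%). TNF family ligands and receptors had 8 tested genes and 0 passed. They included TNFSF13, a B cell survival factor, at 50.0 and 59.7 in MRV, 76.1 and 86.6 in MR, and 85.6 and 67.5 in NC, CD40, an activating receptor of antigen-presenting cells, at 103 and 93.5 in MRV, 103 and 119 in MR, and 81.7 and 91.8 in NC, and the death receptor adaptor FADD at 96.1 and 106 in MRV, 88.9 and 87.2 in MR, and 114 and 109 in NC. Medians of that list were -0.10 in MRV minus MR, -0.03 in MRV minus NC and -0.02 in MR minus NC.

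Among the other leukocyte cytokines, SPP1, the macrophage and matrix cytokine osteopontin, had the widest gap of the listed pathway genes. It read 32.2 and 63.0 in MRV, against 248 and 138 in MR and 199.7 and 113 in NC, so both MRV arrays were below the other 4. Its log2 difference was -1.71 (SE 0.39, unadjusted p = 0.00519, limma adjusted p = 0.502) in MRV minus MR and -1.43 (limma adjusted p = 0.904) in MRV minus NC. The other 4 tested genes of that list had log2 differences between -0.09 and 0.08 in the 3 comparisons. The 2 tested cytokine receptors outside the symbols, GHR and XCR1, had 0 calls.

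**Figure D4:**
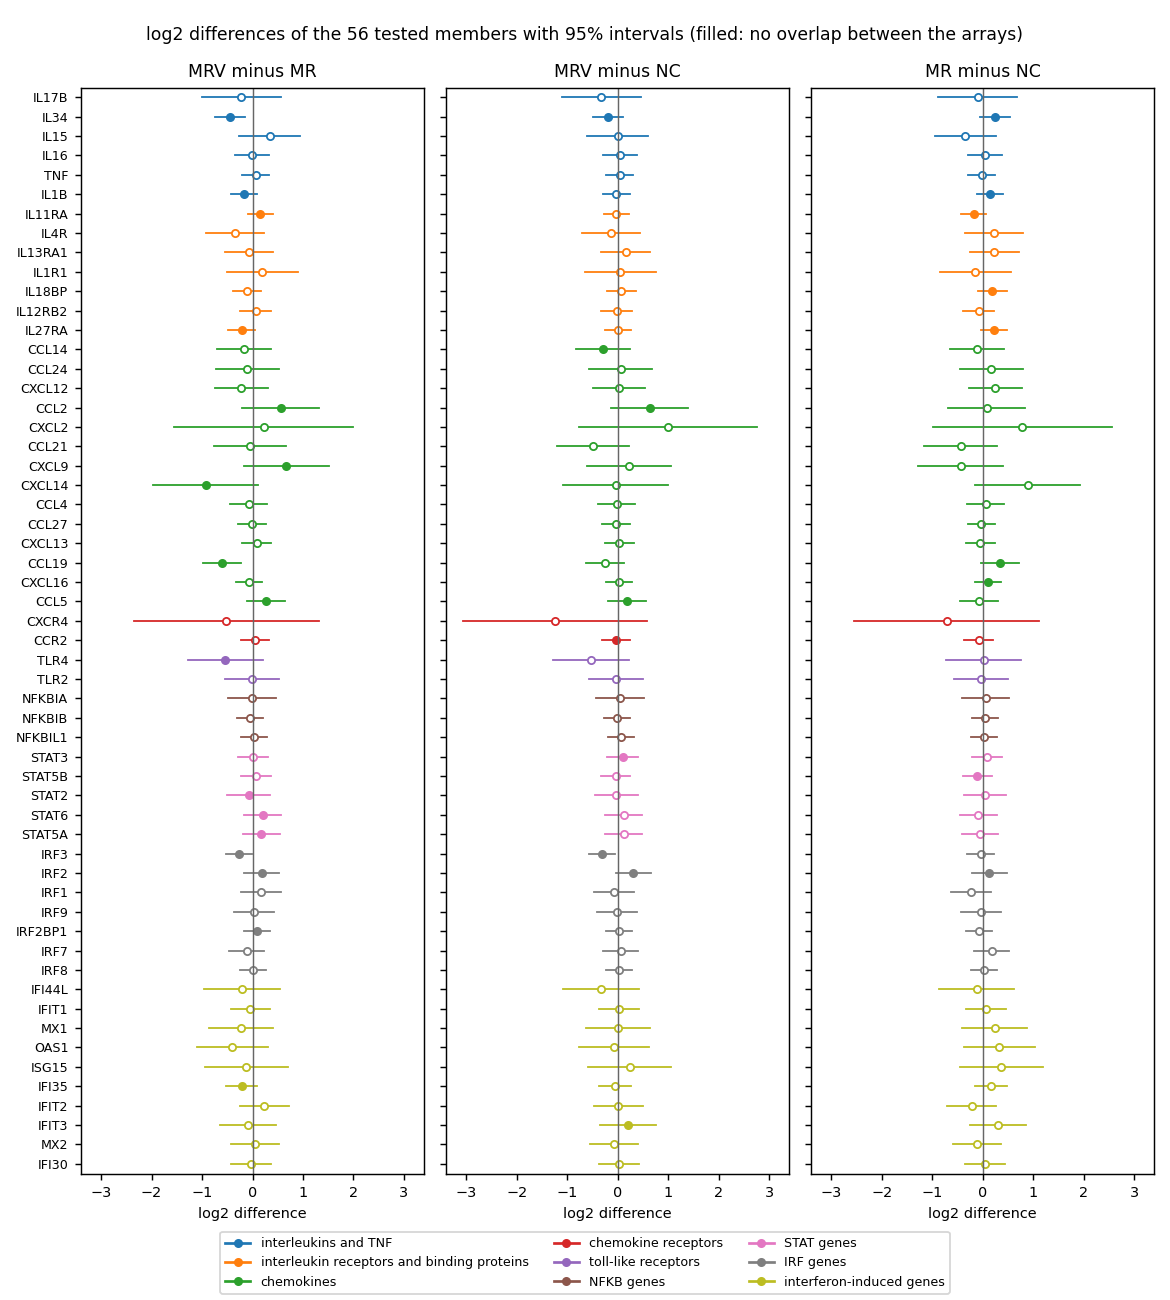
log2 differences of the 56 tested members with 95% intervals from the limma fit, in order of role, for MRV minus MR (left), MRV minus NC (middle) and MR minus NC (right), with filled points where the arrays of both groups did not overlap. The intervals of CCL19, IL34 and IRF3 lie below 0 in MRV minus MR, and the widest interval is that of CXCR4.

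Cell markers were read beside these values. The 8 pan-leukocyte markers, of which 2 had means below 60, summed to 828 and 1002 in MRV, 784 and 837 in MR, and 910 and 712 in NC. The 7 macrophage markers, 4 of them below 60, summed to 425 and 693 in MRV, 415 and 679 in MR, and 687 and 515 in NC. Macrophage sums thus split animals 1 and 2 of both lesioned groups in the same way and had no order between groups. All 6 tested pan-leukocyte markers were higher in MRV than in MR by group mean, where 2292 of all 5408 tested genes were, and 0 passed. The arrays did not overlap for 2 of the 6 (33.3%), against 43.7% of all tested genes. NC1 had the highest fibroblast sum, 12008 against 7704 to 10149 elsewhere, and the highest adipocyte sum, 3397 against 1125 to 2446, and the part of these cells in its CXCR4 and CCL21 values was not tested.

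The atrial markers NPPA, NPPB, MYL4 and SLN were bright on all 6 arrays. MYL2 read 152 and 954 in MRV, 10693 and 2318 in MR, and 203 and 325 in NC, highest in MR1. The ratio of 3' to 5' actin control signal, a measure of RNA integrity that goes up with degradation, was 2.30 and 1.87 in MRV, 1.44 and 1.70 in MR, and 1.61 and 1.91 in NC. It separated MRV from MR without overlap. The 3' signal of this actin control was itself lower in MRV (7859 and 10977) than in MR (15543 and 14861). A GAPDH 3' control read 9595 and 10086 in MRV and 9408 and 8810 in MR. Its 5' partner read 6279 and 6512 in MRV and 6138 and 5598 in MR. No GAPDH ratio was used as a covariate. The ratio from another pair of actin control probe sets was 6.46 and 11.6 in MRV, 8.10 and 9.11 in MR, and 9.72 and 6.96 in NC and did not separate them. The part of RNA integrity in the MRV minus MR differences was not tested beyond adding the first ratio as a covariate.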

How the data were processed

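Total RNA from the left atrium of each of the 6 pigs was hybridised to 1 array. The deposited values are intensities on a linear scale (4.8 to 27167) that the authors normalized, with MAS5 and RMA both listed per the submitters' processing notes. The sources used here do not say which of them gave the values, and no detection calls were used. Intensities were analysed as log2(intensity + 16) after leaving out 124 control rows of 24123, and array medians were between 90.1 and 93.1. Gene names came from the platform annotation, where 10069 probe sets had 1 symbol, 198 several and 13732 none, and all 92 member genes matched RefSeq by Entrez number with the same symbol.

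Probe sets with a mean at or above the 40th percentile (61.4) were fitted with limma 3.58.1 in R 4.3.3, with 1 mean per group over all 6 arrays, and p-values were adjusted over all 14400 by Benjamini-Hochberg. Each group has 2 animals, so the fit has 3 residual and 2.78 prior degrees of freedom. The script was tested on simulated data with 200 probe sets changed in MR. The noise was independent and normal, with the fitted spreads shuffled over probe sets. It recovered 55.4% of log2 changes of 1 and 86.2% of those of 2, with a mean of 7 false calls over 5 draws. Smaller changes were not simulated, so these shares are not the power for the member differences reported here. Members given array by array by rule were those with gaps of at least 0.5 without overlap (at most 8 per comparison), the 3 with the highest mean in each role, and 20 of 23 genes fixed by name that were measured, 38 genes in all. Up to 3 genes with the smallest p were taken from each pathway list. Other members, LY96, B2M, RSAD2, DDX60 and marker genes given with values were chosen after their values were seen. Members and lists were chosen with earlier results of these data known. Alternatives covered the pseudocount, filter, normalization, probe set averaging, replicate number, actin ratio and each left-out array.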

Additional observations from a re-analysis of the deposited data

How the results depend on the processing

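No member passed an adjusted p under 0.05 in any comparison with limma under any of the 14 alternatives. Without a filter on dim probe sets, the arrays of both groups did not overlap for 16 members in MRV minus NC and 15 in MR minus NC, against 9 in each with the filter, because more members were tested. Leaving out 1 array moved these counts to 17 to 41 in MRV minus MR, 9 to 38 in MRV minus NC and 9 to 34 in MR minus NC, since a lone array overlaps less often. The members' median log2 difference then ranged from -0.050 to -0.010 in MRV minus MR, from -0.034 (without NC2) to 0.0085 in MRV minus NC, and from 0.000366 to 0.092 (without NC1) in MR minus NC. With 1 array left, it is assumed to vary like the other groups. When the actin ratio entered as a covariate, the median in MRV minus MR was 0.078, against -0.031 without it. Sign changes are listed only for members given by rule whose arrays did not overlap in the comparison. Among these, the sign turned for STAT2 (0.195) and TLR4 (0.187) in MRV minus MR and for CCR2 (0.033) in MRV minus NC. Sign changes of genes with overlapping arrays are not listed, and the cause was not tested. With the replicate number as a block, 0 members passed. The medians were -0.031, 0.008 and 0.035 in MRV minus MR, MRV minus NC and MR minus NC, as without it. Each group holds 1 animal of each number, so this block can change p-values but no log2 difference. Deviations of same-numbered animals correlated at 0.019 for MRV and MR, 0.202 for MRV and NC and 0.340 for MR and NC over 14400 probe sets. The labels name no pairing, and the main fit used none. Whether same-numbered animals shared an effect was not tested beyond these correlations and the block. Counts without overlap were not computed under the block or the covariate. Precision is limited by having 2 animals in each group.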
